A study of Mus musculus with 48 samples.

Results

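The genes described here are 10 mRNAs of the hypoxia response and of angiogenic signalling: Hif1a, Egln1, Egln3, Vegfa, Vegfb, Adm, Bnip3, Ndrg1, Ddit4 and Ankrd37. They were chosen by name for their place in this pathway, with earlier results of these data known. All 10 symbols were matched to Ensembl identifiers among the 50600 genes listed in the count files. Of them, 9 were among the 13889 genes tested, the exception being Adm. RNA was sequenced from mPDAC cells, one mouse pancreatic ductal adenocarcinoma line of FVB/N x C57BL6 background, that were either treated with 50 µM N6L for 48 h or left non-treated (NT). N6L is a synthetic ligand and antagonist of nucleolin, a protein of the nucleolus that binds RNA. Both groups received emetine, which holds ribosomes on mRNA, before lysis, and both were freed of nuclei and mitochondria. Cytoplasmic RNA came from the lysate and polysomal RNA from pooled fractions after that lysate was run on a sucrose gradient, with 3 cultures in each of the 4 groups, numbered 1, 2 and 4 for NT and 1, 2 and 3 for N6L. The oxygen supply of the cultures is not given in the sources used here, and no sample was labelled as hypoxic.

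HIF-1α, the protein made from Hif1a, is held low in well-oxygenated cells because prolyl hydroxylases, among them those encoded by Egln1 (PHD2) and Egln3 (PHD3), mark it for capture by the VHL ubiquitin ligase. When oxygen is scarce, or when its synthesis or stability is raised in other ways, HIF-1α pairs with ARNT and binds short DNA elements upstream of genes of glycolysis, mitophagy and vessel growth. This control acts mainly on the HIF-1α protein, which mRNA counts do not measure. Pancreatic ductal tumours are known for their poor blood supply and low oxygen.

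The core of a hypoxia response element occurs as ACGTG or GCGTG. Promoter sequences of RefSeq (GRCm38.p6, from 250 bases before to 50 after the start site) were matched for 9 of the 10 genes, with a pair for Vegfa and none for Ndrg1, and were searched on both strands, counting overlapping matches. ACGTG was present in 7 of these 10 promoters and in 19.6% of all 32851 promoters, and GCGTG in 7 of 10 and in 32.4% of all. The 30-base windows around each ACGTG are shown, written in the direction of the gene with every core in capitals. A core on the opposite strand appears as its reverse complement, and the palindrome CACGTG holds ACGTG on both strands.
Hif1a, chr12:73907720-73907749, + strand: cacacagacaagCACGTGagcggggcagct
Hif1a, chr12:73907785-73907814, + strand: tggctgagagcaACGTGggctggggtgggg
Egln1, chr8:124949305-124949334, - strand: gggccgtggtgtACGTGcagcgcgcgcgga
Egln3, chr12:54204086-54204115, - strand: tgtgcatctcagACGTGagatccaggtttt
Vegfa, chr17:46025357-46025386, - strand: ggagtGCGTGccCACGTcagagagcaacat
Bnip3, chr7:138909597-138909626, - strand: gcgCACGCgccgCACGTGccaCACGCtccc
Ddit4, chr10:59951940-59951969, - strand: agaacgttgcgaACGTGcgcccggtgccta
Ankrd37, chr8:46000071-46000100, - strand: cccagcagtACGTGcctagctcggctcgca
Ankrd37, chr8:45999851-45999880, - strand: ggctgcacatgtcagtgtttgggtACGTGa

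In the annotation (GENCODE vM21, GRCm38) the windows of Bnip3, Egln3 and Ddit4 lie outside any gene, and those of Hif1a and the more distant one of Ankrd37 lie in introns of longer transcripts. The windows of Egln1, of Vegfa and the nearer one of Ankrd37 overlap an exon of the same gene. The Bnip3 window is the densest, with 4 cores within 30 bases, the palindrome counting on both strands. The promoters of Vegfb and Adm held 2 GCGTG cores each and no ACGTG, and the distal of the Vegfa promoters, at the start of the gene, held neither. A match is a description of the letters in these windows and says nothing of binding.

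Each of the 12 libraries held between 19519911 and 44972333 counts after its 4 technical replicates were summed. Of 9 ductal epithelial markers, 8 exceeded 10 CPM (the counts scaled to a fixed total per library, with TMM factors) in every library, Krt8 at 2036 to 3356 and Krt19 at 1108 to 2300 CPM among them, while Epcam stayed at or below 0.301 CPM. The summed endothelial markers reached 0.794 CPM in NT and 1.17 CPM in N6L cytoplasm, with Erg and Cldn5 at 0 counts throughout, and the summed fibroblast and leukocyte markers stayed at or below 1.22 and 2.23 CPM. The acinar list was near 0 except for Cela1, at 27.6 to 82.7 CPM. Ncl, which encodes nucleolin, stood at 974, 1556 and 1477 CPM in NT and 1157, 1297 and 1261 CPM in N6L cytoplasm, and at 885, 813 and 923 against 798, 478 and 231 CPM in polysomes (adjusted p = 0.122 in polysomes). In bulk RNA fewer cells with a transcript and less transcript per cell cannot be told apart, a change here is a change in the share of a library, and the labels do not say how separately the cultures were grown, so p-values measure the spread between these samples.

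Per base of exon, Ndrg1 was the most abundant of the 10 mRNAs in all 4 groups and Adm the least. In NT cytoplasm Ndrg1 reached 353 ± 128 TPM (counts per base of exon, scaled to a fixed total without TMM factors, ± SD, n = 3). Ddit4 followed at 180 ± 68.3, Vegfa at 171 ± 70.3 and Vegfb at 149 ± 12.4 TPM, and the ranges of neighbours among these 4 overlapped. Egln1 followed at 92.1 ± 8.46 TPM, apart from its neighbours, and Hif1a (40.2 ± 19.0) overlapped with Egln3 (35.0 ± 6.59 TPM). Bnip3 at 13.6 ± 7.26 and Ankrd37 at 7.11 ± 4.58 TPM also overlapped. In N6L cytoplasm Hif1a stood at 108 ± 15.7 TPM and had moved above Egln1 (93.6 ± 1.17 TPM), although their ranges touched, while in polysomes it stood below Egln3 in both groups, in N6L at 39.1 ± 20.3 against 64.0 ± 7.22 TPM. For all 10 genes and for Ncl, N6L cytoplasm stood higher against NT in TPM than in CPM. Mean Ncl was 338 TPM in NT and 419 TPM in N6L cytoplasm, against 1336 and 1238 CPM.

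**Figure D1:**
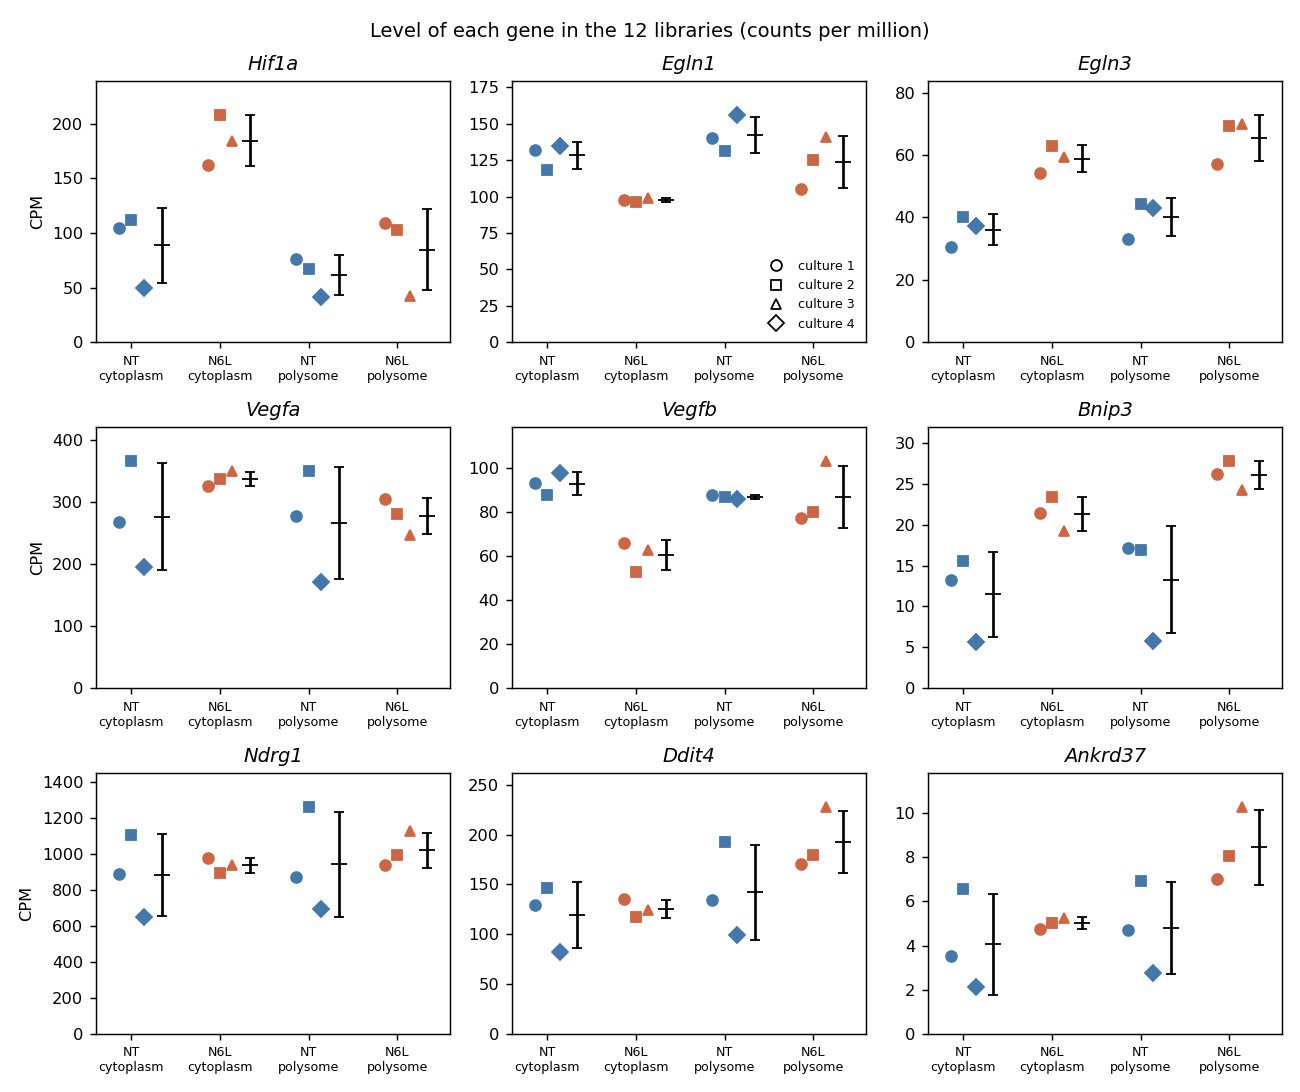
Level of 9 genes in each library, in CPM on a linear axis from 0, by group (blue NT, orange N6L); each symbol shape is a culture, and the black bar gives the mean ± SD of 3 cultures. Egln3 lies higher in N6L than in NT in both fractions, while the diamond of NT culture 4 lies below the other NT cultures in both fractions for 6 genes.

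The first comparison asks which of these mRNAs changed in the cytoplasm, the amount available for translation, after N6L. Hif1a and Egln3 rose and Vegfb fell, 3 of 9 genes tested, where 28.3% of all genes tested passed the same limit (edgeR quasi-likelihood test, adjusted p below 0.05), so this share was near that of all genes. By direction, 14.5% of all genes rose and 13.8% fell, beside 2 and 1 of the 9. The libraries of the N6L and NT groups did not overlap for 5 of the 9 genes, against 54.9% of all genes. The median log2 fold change of the 9 was 0.29, beside 0.04 for all genes.

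Hif1a (chr12:73901375-73947530, + strand), the oxygen-regulated subunit of the transcription factor, stood at 105, 112 and 49.2 CPM in the cytoplasm of NT cultures 1, 2 and 4 and at 162, 208 and 184 CPM in N6L cultures 1, 2 and 3. All N6L libraries lay above all NT libraries. The fold change was 2.08 (log2 1.06 ± 0.35 SE, edgeR adjusted p = 0.0377). Without NT culture 4, the lowest, the log2 fold change was 0.74 (adjusted p = 0.129), and the call was also lost without NT culture 1, NT culture 2, N6L culture 1 or N6L culture 2, at adjusted p between 0.0517 and 0.151.

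In polysomes Hif1a stood at 76.1, 66.6 and 41.1 CPM in NT and at 109, 103 and 41.9 CPM in N6L cultures. Cultures 1 and 2 of N6L lay above all NT libraries, while N6L culture 3 lay at the level of the lowest of them. The log2 fold change was 0.47 ± 0.35 and did not pass (edgeR adjusted p = 0.419), and without N6L culture 3 it was 0.80 (adjusted p = 0.121). The antisense gene Gm15283 shares 330 exonic bases with Hif1a and had at most 0.0392 CPM.

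Of the hydroxylases, Egln3 (chr12:54178981-54203860, - strand), itself a widely used hypoxia-inducible gene, was the one that rose in both fractions. Its cytoplasmic level was 30.5, 40.2 and 37.4 CPM in NT and 54.2, 62.9 and 59.4 CPM in N6L cultures. Its polysomal level was 33.0, 44.3 and 43.1 CPM in NT and 57.0, 69.3 and 70.1 CPM in N6L cultures. Treated and non-treated libraries did not overlap in either fraction, and NT culture 4 lay between the other NT cultures. The fold change was 1.64 in the cytoplasm (log2 0.71 ± 0.17, edgeR adjusted p = 0.00813) and 1.63 in polysomes (log2 0.70 ± 0.16, adjusted p = 0.0194). Leaving out N6L culture 2 ended both calls (log2 0.61 and 0.66, adjusted p = 0.0767 and 0.13), and leaving out NT culture 1 ended the polysomal call (log2 0.58, adjusted p = 0.104), as did a fit of only the polysomal libraries (adjusted p = 0.0906).

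Egln1 (chr8:124908587-124949324, - strand), the main hydroxylase of HIF-1α in most cells, stood at 132, 118 and 135 CPM in NT and at 97.4, 96.5 and 99.0 CPM in N6L cytoplasm. The groups did not overlap, but the log2 fold change of -0.39 ± 0.14 missed the limit (edgeR adjusted p = 0.0533). It passed with RLE size factors (adjusted p = 0.0397), DESeq2 (adjusted p = 0.0148) and technical replicate a alone (adjusted p = 0.0376). It also passed with only the cytoplasmic libraries (adjusted p = 0.0138) and with length and GC offsets (-0.49, adjusted p = 0.0102). It did not pass with library size alone, where it was -0.25 (adjusted p = 0.142), or with no filter (adjusted p = 0.24). Nor did it with at least 10 counts in every library (adjusted p = 0.053) or with the samples of conflicting labels left out (adjusted p = 0.0569). With 1 culture left out at a time it never passed (adjusted p = 0.0563 to 0.151). On the TPM scale, which carries the upward shift in N6L given above, the cytoplasmic groups stood at 92.1 ± 8.46 and 93.6 ± 1.17, the N6L range inside that of NT. In polysomes the values were 140, 131 and 156 CPM in NT and 105, 125 and 141 CPM in N6L cultures, which overlapped (log2 -0.21 ± 0.14, edgeR adjusted p = 0.387), but with length and GC offsets this fold change was -0.41 and passed (adjusted p = 0.0307).

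Among the angiogenic ligands, Vegfa (chr17:46016993-46032369, - strand), the principal growth factor of endothelial cells, did not pass in either fraction. It stood at 269, 367 and 195 CPM in NT and at 327, 337 and 350 CPM in N6L cytoplasm, with NT cultures on both sides of the narrow N6L range. In TPM the cytoplasmic ranges did not overlap, at 101 to 242 in NT and 261 to 278 in N6L. In polysomes it stood at 278, 351 and 171 CPM in NT and at 306, 281 and 248 CPM in N6L cultures, again overlapping. The log2 fold changes were 0.29 ± 0.25 (95% interval -0.19 to 0.77, edgeR adjusted p = 0.389) and 0.06 ± 0.25 (-0.42 to 0.54, adjusted p = 0.897). Without NT culture 4 they were 0.06 and -0.16.

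Vegfb (chr19:6982473-6987651, - strand), a ligand of VEGFR1, fell in the cytoplasm. Its level was 93.1, 87.3 and 97.5 CPM in NT and 65.6, 52.5 and 62.7 CPM in N6L cultures, with no overlap. The fold was 0.65 (log2 -0.62 ± 0.15, edgeR adjusted p = 0.00976), and without N6L culture 2 the call was lost (log2 -0.58, adjusted p = 0.0653). With offsets for transcript length and GC content the log2 fold change was -0.07 (adjusted p = 0.780), so the call rests on a fit without them; at 62.6% GC, Vegfb has the highest GC content of the 10 mRNAs. On the TPM scale, with the same upward shift in N6L, the groups stood at 149 ± 12.4 and 129 ± 12.3, with overlapping ranges. In polysomes it stood at 87.7, 86.6 and 85.8 CPM in NT and at 76.9, 80.0 and 103 CPM in N6L cultures, a ratio of 0.999 (log2 95% interval -0.29 to 0.29).

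Adm (chr7:110627661-110629820, + strand), which encodes the vasodilator peptide adrenomedullin and is a strong hypoxia target in many cells, was barely detected and was removed by the filter on low counts. Its cytoplasmic libraries held 4, 2 and 1 counts in NT and 5, 24 and 12 counts in N6L cultures. Its polysomal libraries held 2, 8 and 5 counts in NT and 18, 7 and 7 counts in N6L cultures. Summed over cultures and scaled to library size, the N6L to NT ratio was 3.81 in the cytoplasm (exact 95% interval 1.69 to 10.1, counting error only) and 2.09 in polysomes (1.10 to 4.15). When no filter was applied, Adm was among 5 of the 10 genes called in the cytoplasm, beside 17% of all genes.

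Of the downstream targets, Bnip3 (chr7:138890836-138909519, - strand), a receptor of mitophagy, had the largest polysomal fold change of the 9 and did not pass in either fraction as fitted, although it did under several alternatives. It stood at 13.2, 15.6 and 5.61 CPM in NT and at 21.4, 23.4 and 19.2 CPM in N6L cytoplasm. In polysomes it stood at 17.2, 16.9 and 5.72 CPM in NT and at 26.2, 27.8 and 24.3 CPM in N6L cultures. The groups did not overlap in either fraction, and NT culture 4 lay far below the other NT cultures in both. The log2 fold changes were 0.89 ± 0.37 (edgeR adjusted p = 0.0813) and 0.98 ± 0.37 (adjusted p = 0.104). Without NT culture 4 they were 0.54 (adjusted p = 0.0517) and 0.63 (adjusted p = 0.0576). Bnip3 passed in both fractions with length and GC offsets (1.09 and 1.13, adjusted p = 0.0427 and 0.0486) and with no filter (adjusted p = 0.000331 and 0.000368), and in the cytoplasm with only the cytoplasmic libraries (0.85, adjusted p = 0.0336).

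Ndrg1 (chr15:66929318-66969640, - strand), a stress-responsive gene linked to differentiation, did not pass in either fraction. It stood at 887, 1107 and 652 CPM in NT and at 976, 896 and 941 CPM in N6L cytoplasm. In polysomes it stood at 872, 1264 and 694 CPM in NT and at 937, 995 and 1129 CPM in N6L cultures. The N6L range lay inside the NT range in both fractions, with log2 fold changes of 0.09 ± 0.22 (95% interval -0.34 to 0.51) and 0.11 ± 0.22 (-0.31 to 0.54), and without NT culture 4 these were -0.12 and -0.05. In TPM the cytoplasmic ranges were 219 to 474 in NT and 480 to 505 in N6L, without overlap.

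Ddit4 (chr10:59949669-59951834, - strand), which encodes REDD1, an inhibitor of mTORC1, stood at 129, 146 and 81.9 CPM in NT and at 135, 117 and 124 CPM in N6L cytoplasm. In polysomes it stood at 134, 193 and 99.0 CPM in NT and at 170, 179 and 228 CPM in N6L cultures. The groups overlapped in both, with log2 fold changes of 0.07 ± 0.24 (edgeR adjusted p = 0.837) and 0.44 ± 0.24 (adjusted p = 0.269). Without NT culture 4 these were -0.16 and 0.25. In TPM, with that same shift, the cytoplasmic ranges were 104 to 235 in NT and 236 to 263 in N6L.

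Ankrd37 (chr8:45996902-46005707, - strand), a small ankyrin repeat gene induced by HIF-1, stood at 3.51, 6.58 and 2.10 CPM in NT and at 4.74, 5.03 and 5.27 CPM in N6L cytoplasm. In polysomes it stood at 4.72, 6.91 and 2.74 CPM in NT and at 7.0, 8.05 and 10.3 CPM in N6L cultures. The N6L libraries overlapped with NT in the cytoplasm and lay above all NT libraries in polysomes, where the log2 fold change was 0.82 ± 0.36 (edgeR adjusted p = 0.161), against 0.30 ± 0.36 (adjusted p = 0.543) in the cytoplasm. The polysomal fold change passed without NT culture 2 (log2 1.19, edgeR adjusted p = 0.0393) and with no filter (adjusted p = 0.0199). It shares 57 exonic bases with Ufsp2 on the opposite strand, at 31.6 to 62.1 CPM, and while the library kit marked the strand, the setting used in counting is not stated in the sources used here.

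In the polysomal comparison as a whole, which follows the mRNAs engaged with several ribosomes, Egln3 was the 1 gene of 9 that passed, where 9.67% of all genes tested did (edgeR), 6.01% upward and 3.66% downward. These NT and N6L libraries also enter the comparisons of polysome with cytoplasm, so the values of the comparisons are not separate evidence. Bnip3, Egln3 and Ankrd37, 3 of 9, did not overlap between treatments, against 25.6% of all genes. The median log2 fold change of the 9 was 0.44, beside 0.00 for all genes.

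**Figure D2:**
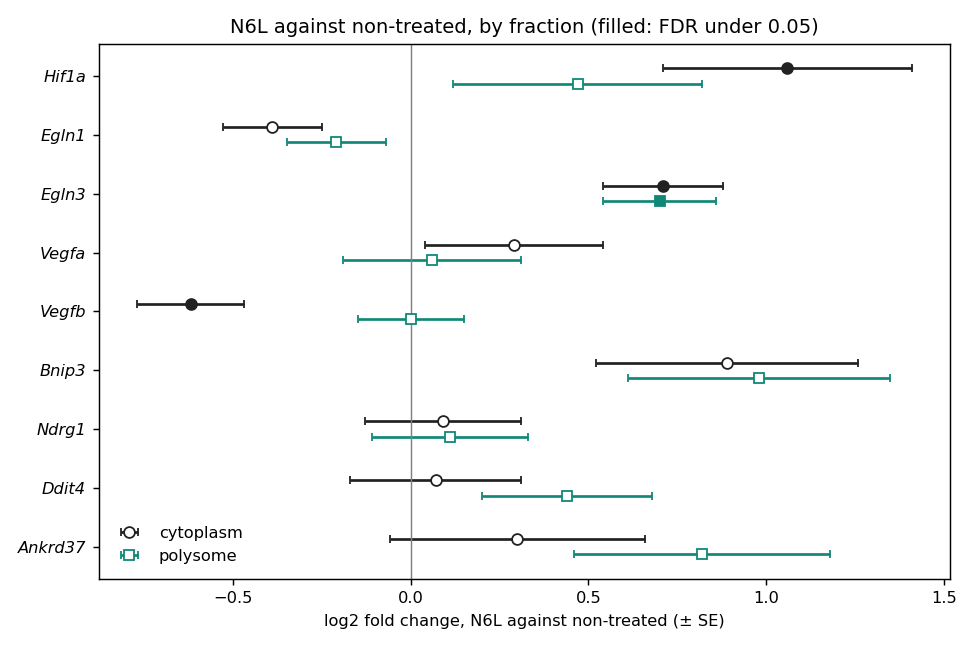
Log2 fold change of N6L against non-treated for 9 genes (x axis, ± SE), in the cytoplasm (circles) and in polysomes (squares), with filled symbols for adjusted p below 0.05. Egln3 has filled symbols in both fractions, at 0.71 and 0.70, while Hif1a and Vegfb have one in the cytoplasm only.

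NT culture 4 moved with several of these results. In both fractions it was below NT cultures 1 and 2, and over 1.5-fold below their mean, for Hif1a, Vegfa, Bnip3, Ndrg1, Ddit4 and Ankrd37. These are 6 of 9 genes, where 3.79% of all genes tested were so placed. The size of the gap ran from Ndrg1, at -0.60 on the log2 scale in both fractions, to Bnip3, at -1.35 in the cytoplasm and -1.56 in polysomes. For Bnip3, 0.979% and 0.194% of all genes had a deeper gap. Vegfb, Egln1 and Egln3 did not share it, with differences between -0.02 and 0.20, and the median over all genes was -0.03 and 0.01. Both libraries of this culture came from one lysate, so the fractions are not separate observations of it. These 6 genes were singled out after their values were seen, and the part of this culture in the fold changes is given above by the values without it.

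Polysome and cytoplasm of each culture were then compared. Each library is scaled to its own total, so the ratio gives the standing of an mRNA in polysomes relative to other mRNAs. It is not the share of that mRNA with polysomes, and a change in the total amount of polysomes is not seen on this scale. In NT cells no member passed (0 of 9, beside 0.209% of all genes; edgeR, with 0 of 9 also at an unadjusted p below 0.05, beside 13.4% of all genes, and 0 with DESeq2), and log2 differences ran from -0.54 for Hif1a to 0.25 for Ddit4. None of the 9 was without overlap between fractions, against 22.4% of all genes.

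In N6L cells 2 of 9 members passed, beside 39% of all genes (edgeR): Hif1a was lower in polysomes, as were 20.6% of all genes, and Vegfb higher, as were 18.4%. The fractions did not overlap for 7 of the 9, against 56.9% of all genes. Hif1a differed by -1.12 ± 0.35 on the log2 scale (adjusted p = 0.0230), a polysomal level of 0.459 times the cytoplasmic one. Vegfb differed by 0.52 ± 0.15 (adjusted p = 0.0157), a ratio of 1.44. With the culture as a block, since both fractions come from one lysate, 5 of 9 passed: Hif1a (-1.23, adjusted p = 0.00390) and Vegfb (0.52, adjusted p = 0.00656) were joined by Ankrd37 (0.74, adjusted p = 0.00322), Ddit4 (0.61, adjusted p = 0.00418) and Egln1 (0.33, adjusted p = 0.0287), all 3 higher in polysomes, while 53.7% of all genes passed.

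These calls depended on N6L cultures 2 and 3 and on the correction for transcript properties. Without N6L culture 2 neither Hif1a (-1.18, edgeR adjusted p = 0.0869) nor Vegfb (0.51, adjusted p = 0.0910) passed, at differences about as large as with it. Without N6L culture 3 the differences were -0.80 and 0.41 (adjusted p = 0.134 and 0.0921). With length and GC offsets none of the 9 passed, and among all genes the calls fell from 5415 of 13889 to 2737 of 13867. Vegfb changed its sign to -0.25 (edgeR adjusted p = 0.34), while Hif1a stood at -0.48 (adjusted p = 0.168). With the block as well, Hif1a (-0.50, adjusted p = 0.0214), Vegfa (-0.28, adjusted p = 0.0403) and Bnip3 (0.37, adjusted p = 0.0195) passed and Vegfb did not (-0.26, adjusted p = 0.0598). The share of all genes that passed in that last fit is not given here, so its calls are not set apart from those of other genes.

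Per culture, the log2 ratio of polysome to cytoplasm of Hif1a was -0.46, -0.75 and -0.26 in NT cultures 1, 2 and 4 and -0.57, -1.01 and -2.13 in N6L cultures 1, 2 and 3. N6L culture 3 lay far below the rest, and N6L culture 1 lay within the NT range. For Vegfb the ratios were -0.09, -0.01 and -0.19 in NT and 0.23, 0.61 and 0.71 in N6L cultures, below 0 in every NT culture and above 0 in every N6L culture. For Ankrd37 they were 0.42, 0.07 and 0.37 in NT and 0.55, 0.67 and 0.95 in N6L cultures, which also did not overlap. N6L culture 3 had the most extreme ratio of the N6L cultures for all 9 genes, negative for Hif1a and Vegfa and positive for the rest, and its polysomal library also had the lowest Ncl level; its part in the ratios was not tested beyond the values without it.

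**Figure D3:**
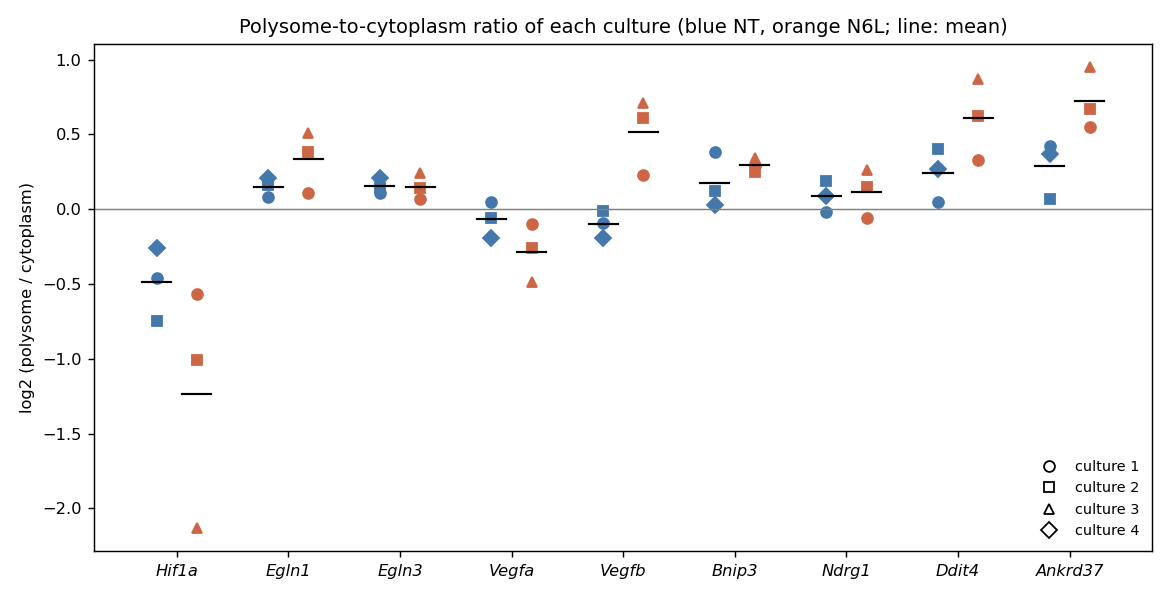
Log2 ratio of polysome to cytoplasm (y axis) for 9 genes in each culture, with blue symbols for NT, orange for N6L, a shape for each culture and a line at the mean of 3. Vegfb and Ankrd37 are the genes whose NT and N6L cultures do not overlap, and Hif1a in N6L culture 3 lies lowest at -2.13.

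The translational index, the difference of these ratios between N6L and NT, passed for none of the 9 members and for 0% of all genes (edgeR, 0 calls; DESeq2 also gave 0). At an unadjusted p below 0.05 stood 1 member, Vegfb, and 7.73% of all genes. The index of Vegfb was 0.62 ± 0.21 (edgeR unadjusted p = 0.0108, adjusted p = 0.555) and 0.06 with length and GC offsets (adjusted p = 0.960), and that of Hif1a -0.59 ± 0.49 (95% interval -1.55 to 0.38). Egln3, which rose in both fractions, had an index of -0.01 ± 0.23 (95% interval -0.46 to 0.45). By culture the ratio differed by 0.61 for Vegfb and by 0.44 for Ankrd37 (exact two-sided permutation p = 0.1 for each, the smallest that 3 cultures against 3 allow), and the treatments did not overlap for these 2 of 9 genes, against 29.7% of all genes. The other 7 had exact p-values of 0.2 to 0.9.

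The genes around the members were read in the same fit of 4 group means, list by list. Apart from the members, they were not read under the alternatives, such as length and GC offsets or without NT culture 4. The lists were chosen with earlier results of these data known. The counts stand beside all genes tested, of which 14.5% rose and 13.8% fell in the cytoplasm (median log2 fold change 0.04) and 6.01% rose and 3.66% fell in polysomes (median 0.00). Of the oxygen-sensing machinery, 20 genes with 3 members among them, 18 were tested, and in the cytoplasm 7 rose, 3 fell and 8 did not pass (median log2 fold change 0.07). Epas1, which encodes HIF-2α, rose by 1.94 ± 0.23 on the log2 scale (3.83-fold, edgeR adjusted p = 0.000507), from a low level (mean 11.4 CPM), and by 1.37 ± 0.23 in polysomes (adjusted p = 0.00452). Arnt, the partner of both HIF-α subunits, rose by 0.97 ± 0.22 (adjusted p = 0.00656), and Ep300, a coactivator, by 1.34 ± 0.34 (adjusted p = 0.0117); neither passed in polysomes. The 3 that fell were Elob (-0.95), Eloc (-0.69) and Rbx1 (-0.59), named after their values were seen. None of them passed in polysomes (log2 -0.35, -0.52 and -0.31, edgeR adjusted p = 0.437, 0.0791 and 0.321). Each encodes a subunit of the VHL ubiquitin ligase, of which Cul2, the scaffold (-0.21, adjusted p = 0.513), and Vhl (0.13, adjusted p = 0.505) did not pass.

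Among 40 other HIF targets, 36 were tested, 9 rose in the cytoplasm and 2 fell (median 0.37, beside 0.04 for all genes), and in polysomes 5 rose and none fell (median 0.33, beside 0.00). Kdm3a, a histone demethylase, rose by 1.22 ± 0.31 in the cytoplasm (edgeR adjusted p = 0.0122). Ier3, an early response gene, rose by 1.16 ± 0.25 (adjusted p = 0.00550) and by 1.67 ± 0.25 in polysomes (adjusted p = 0.00223). Car9, a carbonic anhydrase widely used as a marker of hypoxia, had a mean of 0.957 CPM and a log2 fold change of -0.09 (adjusted p = 0.850).

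Of 21 HIF-regulated glycolytic genes, 20 were tested, 4 rose and 1 fell in the cytoplasm (median 0.22), and 3 rose in polysomes (median 0.29). Aldoc, a minor aldolase, rose by 1.91 ± 0.33 (edgeR adjusted p = 0.00234) and by 2.06 ± 0.33 in polysomes (adjusted p = 0.00355). Pfkfb3, which makes the activator of phosphofructokinase, rose by 1.44 ± 0.20 (adjusted p = 0.000949), and Pdk1, which restrains pyruvate dehydrogenase, by 0.90 ± 0.18 (adjusted p = 0.00421). The abundant enzymes did not follow: Gapdh fell by 0.57 in the cytoplasm (adjusted p = 0.0170), and Ldha (0.11), Pgk1 (0.13) and Slc2a1 (-0.08), the glucose transporter, did not pass.

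Of 20 angiogenic ligands, 3 of them members, 17 were tested, 2 rose and 2 fell in the cytoplasm (median 0.29), and 2 rose in polysomes (median 0.37). Angpt2, an antagonist of the Tie2 receptor that loosens vessels, rose by 1.44 ± 0.32 (edgeR adjusted p = 0.00636) and by 1.28 ± 0.31 in polysomes (adjusted p = 0.0230), and Fgf1 rose by 0.63 ± 0.19 in the cytoplasm (adjusted p = 0.0239). Adm2, a relative of Adm, fell by 0.96 on the log2 scale (adjusted p = 0.00657). Of 10 genes listed as inhibitors of angiogenesis, 7 were tested, 3 rose and none fell (median 0.59, where 14.5% of all genes rose): Adamts1 by 2.46 ± 0.31 (adjusted p = 0.000646), Thbs1 by 2.10 ± 0.40 (adjusted p = 0.00322) and Sema3f by 1.02 ± 0.33 (adjusted p = 0.0347), from means of 2.28, 8.78 and 1.28 CPM. That list also holds Vash2 (0.11, edgeR adjusted p = 0.611), for which a role as an inhibitor is not settled. Of 19 receptors, 9 were tested and 3 rose, Flt1 (VEGFR1) by 0.90 ± 0.29 (adjusted p = 0.0320) and Aplnr, the apelin receptor, by 0.82 ± 0.26 (adjusted p = 0.0334) among them, at means of 3.90 and 3.28 CPM, while Kdr (VEGFR2) averaged 0.0124 CPM.

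Relatives of Ndrg1 and Ddit4 passed in the cytoplasm where these members did not. In the Ndrg family of 4, Ndrg4 rose by 1.76 ± 0.27 (edgeR adjusted p = 0.00152) and Ndrg2 by 0.77 ± 0.20 (adjusted p = 0.0133), at means of 6.54 and 25.6 CPM beside 946 CPM for Ndrg1. Among 13 genes of the TSC complex and its surroundings, 6 rose and 2 fell: Ddit4l, the paralog of Ddit4, rose by 1.38 ± 0.25 (adjusted p = 0.00259), Sesn1, a sestrin that restrains mTORC1, by 1.23 ± 0.20 (adjusted p = 0.00181) and Tsc1 by 0.93 ± 0.22 (adjusted p = 0.00923). Sesn2 fell, and so did Rheb, which activates mTORC1 and is the target of the TSC complex (log2 -0.63 and -0.56, adjusted p = 0.0276 and 0.0172). Of 9 mitophagy genes 1 passed in the cytoplasm, Phb2, which encodes prohibitin 2 of the inner mitochondrial membrane and fell by 0.88 (adjusted p = 0.00558), and Bnip3l, the paralog of Bnip3, stood at 0.35 (adjusted p = 0.155).

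**Figure D4:**
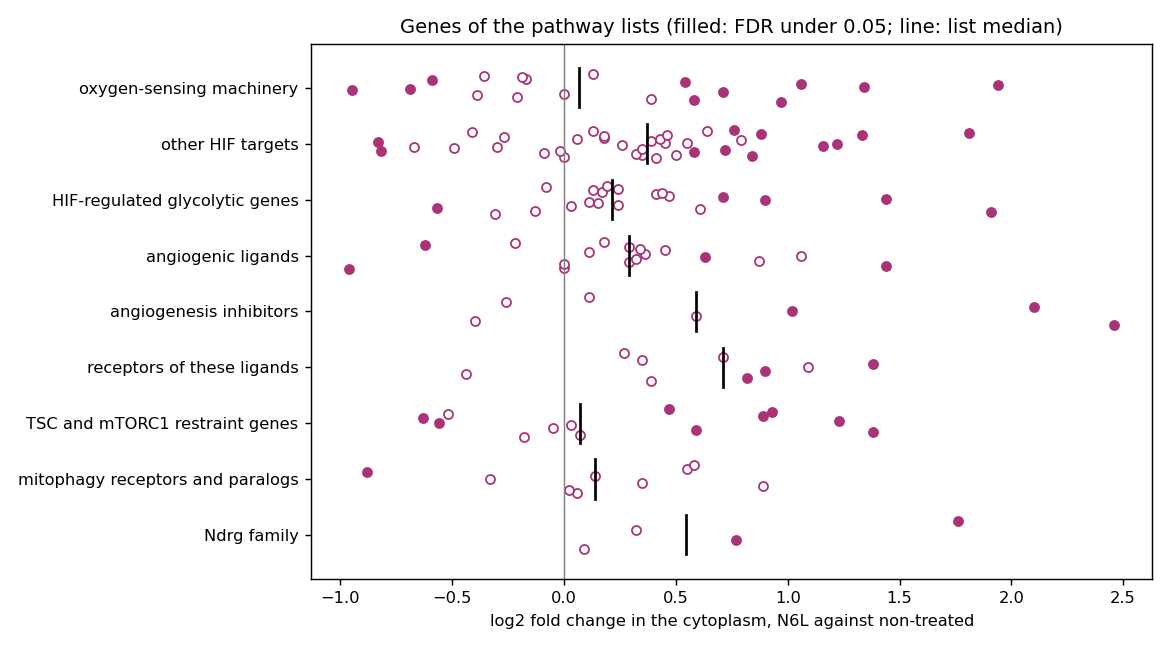
Log2 fold change of N6L against non-treated in the cytoplasm (x axis) for each tested gene of 9 lists, members included, with filled circles for adjusted p below 0.05 and a line at each list's median. Circles on both sides of 0 are filled in 5 of the 9 lists, and the furthest to the right are 2 inhibitors of angiogenesis, Adamts1 at 2.46 and Thbs1 at 2.10.

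Over the 12 libraries, which share their scaling and in pairs their lysate, the genes most like Hif1a in log2 CPM, among 8955 others of at least 10 CPM on average, were Cttnbp2nl (Pearson r 0.991), Zfp317 (0.991) and Zfp608 (0.988). Those most like Vegfa were Chka (0.958), Myc (0.939) and Dcaf7 (0.927). Among the members, Vegfa had r = 0.758 with Hif1a, Bnip3 0.563 and Egln3 0.264, while Egln1 (-0.909) and Vegfb (-0.844) ran opposite to it. The r of Vegfa was 0.753 with Ndrg1 and 0.742 with Bnip3. These values describe 12 libraries of 4 groups and were not tested.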

How the data were processed

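Per the labels, poly(A) RNA was sequenced from cytoplasm and polysomes of mPDAC cells, with and without N6L. The authors made the reads with bcl2fastq 2.18.0.12, used STAR for alignment and HTSeq-count 0.5.3 for counting, and deposited raw counts per gene for 4 technical replicates of each of 12 libraries; the submitters' processing notes name mm10. The kit was stranded; the annotation and the strand setting in counting: not given in the sources used here. Groups came from the labels; 3 technical replicates of N6L cytoplasm culture 2 name culture 1 in a second field and stayed with culture 2 (chi-square per degree of freedom 1.013 to 1.04, against 11.216 to 11.378 from culture 1).

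Technical replicates were summed (chi-square per degree of freedom 1.018 to 1.042). Counts were filtered (filterByExpr, 13889 genes), given TMM factors, and entered in edgeR 4.0.16 (R 4.3.3) as 4 group means over all 12 libraries, with Benjamini-Hochberg adjusted p over all genes tested and a limit of 0.05. SE is the log2 fold change over the root of F, and 95% intervals of log2 fold changes are normal intervals from it. Ratios per culture are log2 CPM (prior count 2), compared by exact permutation. TPM used union exon length in GENCODE vM21 and no TMM factors. The fit was tested on simulated data.

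Cytoplasm and polysome of a culture are paired by their lysate, per the study's methods. Across genes, the correlation of their departures from the group mean was 0.364 to 0.645 among the NT pairs and 0.0368 to 0.229 among the N6L pairs. Between fractions of different cultures it was -0.449 to 0.122 in NT and -0.279 to 0.189 in N6L. In N6L these ranges overlapped, so the values there do not set the pairs apart. Members and lists were chosen with earlier results of these data known. Besides the members, the text names up to 3 genes per list with the largest cytoplasmic change among those called with a mean of at least 1 CPM, fixed markers, Ncl and the 3 genes most like Hif1a and Vegfa; Elob, Eloc, Rbx1, Cul2, Vhl, Car9, Gapdh, Ldha, Pgk1, Slc2a1, Sesn2, Rheb, Kdr and Bnip3l were added after their values were seen. One gene that this rule names is not reported here. The 17 alternatives included DESeq2 1.42.0. Counts in each library ranged from 19519911 to 44972333, and intervals cover counting error only where they rest on counts.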

Additional observations from a re-analysis of the deposited data

Results flagged for a closer look

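The polysome-to-cytoplasm ratio of Vegfb lay below 0 on the log2 scale in all 3 NT cultures and above 0 in all 3 N6L cultures, a difference of 0.61. It is listed here for these opposite signs, and 29.7% of all genes likewise did not overlap between treatments in this ratio. The test of the difference itself, the translational index, gave an adjusted p of 0.555 in edgeR, and the exact permutation test gave 0.1, the smallest it allows. With length and GC offsets the ratio was negative in both, -0.31 in NT and -0.25 in N6L cells, and the index was 0.06.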

How the results depend on the processing

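The number of members called in the cytoplasm was 3 as reported, beside 28.3% of all genes. It was 5 of 10 with no filter (17% of all genes), 5 with the replicate block (34.1%) and 5 with only the 2 groups compared (42.2%). It was 4 with RLE size factors (29.1%), DESeq2 (33.1%), technical replicate a alone (27.1%), length and GC offsets (29.4%) and these with the block (32.2%). In polysomes 1 (9.67% of all genes) became 3 with no filter (6.66%), 2 with the replicate block (9.76%) and 0 with only the 2 groups (2.46%). It became 3 with length and GC offsets (19.8%) and 2 with these and the block (20.7%). For polysome against cytoplasm in N6L cells 2 (39% of all genes) became 4 with DESeq2, 4 with technical replicate a alone, 5 with the replicate block and 0 with length and GC offsets. With these offsets the calls among all genes went from 5415 of 13889 to 2737 of 13867. Leaving out 1 culture at a time gave 0 to 4, 0 to 2 and 0 to 4 calls in these comparisons, with 0 in each of them without N6L culture 2, 0 in polysomes also without NT culture 1 and 0 between N6L fractions also without N6L culture 3. Without N6L culture 2, 9.24% of all genes passed in the cytoplasm and 1.04% in polysomes, and without NT culture 1, 1.44% in polysomes. Between N6L fractions, the shares with DESeq2, with replicate a alone and without 1 culture are not given here. Those counts are therefore not a result about the members. The counts of 0 for NT cells and for the index stayed at 0 under every alternative run. Of single fold changes, 652 kept direction and call, 37 gained and 19 lost the call and 48 changed sign.

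None of the sign changes took a value past the limit. With the replicate block the cytoplasmic log2 fold change was -0.11 for Ndrg1, -0.18 for Ddit4 and -0.04 for Ankrd37, and the polysomal one -0.11 for Vegfa and -0.09 for Ndrg1. NT and N6L cultures share only their numbers in these fits (correlations 0.00756 to 0.296). Number 3 occurs only in N6L and number 4 only in NT. These 2 cultures thus enter this treatment contrast only by the difference between their own fractions, and its level rests on cultures 1 and 2. No call was lost with that block, and Bnip3 gained it in the cytoplasm (0.59, edgeR adjusted p = 0.00959) and in polysomes (0.71, adjusted p = 0.0116), as did Egln1 in the cytoplasm (-0.39, adjusted p = 0.0459). With length and GC offsets Ndrg1 stood at -0.15 in the cytoplasm, Vegfa at -0.03 in polysomes and Ankrd37 at -0.03 between NT fractions; between N6L fractions Vegfb stood at -0.25, Egln3 at -0.06 and Ddit4 at -0.02, and the index of Ddit4 at -0.05. With offsets and block these were -0.34 for Ndrg1 and -0.03 for Vegfa in the cytoplasm, -0.19 and -0.17 for Vegfa and Ndrg1 in polysomes, -0.26, -0.05 and -0.02 for Vegfb, Egln3 and Ddit4 between N6L fractions, and -0.05 for the index of Ddit4. The polysomal value of Vegfb was 0.07 with library size alone, 0.01 with no filter, with at least 10 counts and with only the 2 groups, and 0.09 with replicate a alone. Library size alone gave -0.02 for Ndrg1 between N6L fractions, -0.04 for its index and -0.03 for its ratio per culture, and its index was -0.01 with no filter and with replicate a alone. The index of Egln3 was 0.01 with RLE size factors, DESeq2, replicate a alone and conflicting samples left out. Without 1 culture the ranges were -0.12 to 0.29 (Ndrg1), -0.16 to 0.25 (Ddit4) and -0.02 to 0.82 (Ankrd37) in the cytoplasm, -0.16 to 0.31 (Vegfa), -0.14 to 0.08 (Vegfb) and -0.05 to 0.38 (Ndrg1) in polysomes, -0.05 to 0.11 (Ndrg1) and -0.05 to 0.07 (Egln3) for the index, and -0.04 to 0.12 and -0.05 to 0.03 for their ratios per culture. The causes were not tested.

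Library size alone moved the median log2 fold change of all genes from 0.04 to 0.19 in the cytoplasm and from 0.03 to -0.11 between N6L fractions, and the genes called higher from 2013 of 3935 to 2588 of 3951 and from 2559 of 5415 to 1762 of 4881; in polysomes 835 of 1343 became 1082 of 1394. The common biological coefficient of variation was 0.197. Depth was not tested as a limit: Ankrd37 rests on 42 to 251 counts a library and Adm on 1 to 24, the other 8 tested genes on at least 112.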
